A study of Mus musculus with 12 samples.

Results

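The odorant receptor genes with symbols from Olfr832 to Olfr986 were followed through 2 circadian cycles in the olfactory epithelium of the mouse. They were taken by the number in the symbol, and each was read from a probe of the array that is annotated to 1 gene symbol. The RefSeq gene table lists 150 genes in this range, all on chromosome 9, of which 106 are protein coding, 43 are pseudogenes and 1 is another kind of RNA. The array gave 106 of the 150 a value of their own, 102 of them protein coding, 3 pseudogenes (Olfr856-ps1, Olfr908 and Olfr947-ps1) and 1 listed as another RNA (Olfr915). The other 44 genes have no value here. For 4 of them the only probes are shared with other genes, and for 40 no probe is listed. The 106 members stand among 19937 measured genes, which include 921 other odorant receptors with symbols beginning Olfr.

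Each sample was total RNA of the olfactory epithelium, from both sides of the nose, pooled in equal amounts from 4 male C57BL/6 mice, with 12 pools and 48 mice in all. All animals had spent at least 14 days in 12 h of light and 12 h of dark before they were moved to constant darkness, and no group received an agent or carried an allele. Pools were taken every 4 h from circadian time (CT) 12 to CT56, counted so that CT0 to CT12 is the subjective day, when mice rest, and CT12 to CT24 the subjective night. Each time point is 1 pool on 1 array. The first cycle runs from CT12 to CT32 and the second from CT36 to CT56. The 2 pools that lie 24 h apart share 1 of 6 phases. The p-values rest on the residual spread of each fit, which mixes the spread between pools of mice with what the fit leaves out. For the 24 h fit these are departures from its curve, and for night against day the differences between phases within each. For the cycle fit they are differences between phases in the cycle effect. The second cycle is also the longer time in darkness, and a batch of arrays that ran along with it could not be told apart from it. In RNA of whole tissue, fewer cells that express a gene and less of its RNA per cell cannot be told apart either.

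Odorant receptors are G protein-coupled receptors of the cilia of olfactory sensory neurons. A mature neuron expresses 1 receptor gene from 1 allele, so the RNA level of a receptor in tissue depends both on how many neurons chose it and on how much RNA each of them holds. A bound odorant acts through the G protein subunit Gnal and the adenylyl cyclase Adcy3, and cyclic AMP opens a channel that contains Cnga2. Receptor genes lie in clusters along the chromosomes, where related genes are often neighbours, and the homeodomain factor Lhx2 together with Ebf factors binds the enhancers and promoters through which a receptor is chosen.

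In the gene order of the table the members form 2 blocks, with 305 other genes between them. The first runs from Olfr832 to Olfr873, with 28 measured members of 42, and the second from Olfr874 to Olfr986, with 78 of 108. The synonyms of the table place 105 of the 106 measured members in 27 receptor families of the MOR system, which groups mouse odorant receptors by sequence. The largest is MOR171 with 26 measured members, followed by MOR165 with 9, MOR162 and MOR224 with 8 each, and MOR145, MOR161, MOR170 and MOR223 with 5 each.

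Promoter windows of 250 bases before and 50 after the annotated start were on hand for 90 of the measured members, 91 windows in all, from RefSeq on build GRCm38.p6. In 58 of the 91 the annotated start is the start codon, so the window then lies before the coding sequence and need not hold the promoter. The homeodomain core TAATTA was in 20 of the 91 windows (22%), against 18% of windows of other odorant receptors and 5.29% of all windows. The E-box CACGTG, the site of the clock factors Clock and Bmal1, was in 1 of the 91 (1.1%), against 2.18% and 7.15%. Among windows whose annotated start is the start codon, TAATTA was in 20.7% of those of members and 11.9% of all, and CACGTG in 1.72% and 2.98%. The Ebf site, searched as TCCC and GGGA separated by 2 bases, was in 0 of the 91, against 0.513% of other receptor windows and 0.904% of all. All of these motifs read the same on both strands and none overlaps another. A match is a description of letters, not of binding.

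Sequences of 3 receptors of MOR145 from the first block are shown. Their family was among those that read furthest above their own mean in the last pool, and Olfr869 and Olfr872 had nearly parallel values, as described further on. The sequences are 250 bases before the annotated start, 5′ to 3′, with TAATTA in capitals, from chr9:20098376-20098625 for Olfr868, chr9:20128870-20129119 for Olfr869 and chr9:20236912-20237161 for Olfr872, all on the plus strand of GRCm38.p6. They were chosen after their values were seen.
Olfr868: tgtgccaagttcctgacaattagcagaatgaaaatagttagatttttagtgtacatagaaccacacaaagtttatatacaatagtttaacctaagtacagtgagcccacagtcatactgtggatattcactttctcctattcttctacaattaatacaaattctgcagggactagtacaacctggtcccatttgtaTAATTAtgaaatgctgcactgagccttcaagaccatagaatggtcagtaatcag
Olfr869: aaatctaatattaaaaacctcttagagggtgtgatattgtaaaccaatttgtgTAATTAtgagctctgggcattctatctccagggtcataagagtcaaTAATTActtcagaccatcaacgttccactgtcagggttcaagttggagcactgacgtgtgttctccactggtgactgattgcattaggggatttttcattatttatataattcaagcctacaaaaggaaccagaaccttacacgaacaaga
Olfr872: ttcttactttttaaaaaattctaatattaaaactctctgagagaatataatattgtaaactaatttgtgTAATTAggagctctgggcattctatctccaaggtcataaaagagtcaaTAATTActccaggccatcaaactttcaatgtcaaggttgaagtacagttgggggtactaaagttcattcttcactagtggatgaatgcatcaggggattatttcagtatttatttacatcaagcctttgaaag
The windows of Olfr869 and Olfr872 matched at 188 of 275 aligned columns (68.4%), and both hold TAATTA 2 times. Olfr868 matched Olfr869 at 47.5% and Olfr872 at 47.9%, and holds it 1 time. The only E-box among the members lies 129 bases before the start codon of Olfr904, a MOR167 receptor. It is shown as 30 bases of chr9:38463902-38463931 on the plus strand, with CACGTG in capitals.
Olfr904: gatttatatgctCACGTGgggctaatctca

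The deposited values are log2 intensities, on which 1 unit is a doubling. A level holds for its own probe: probes differ in how strongly they bind, and receptor probes may bind relatives, so no receptor is ranked here as more abundant than another. The mean of a member over the 12 pools ran from 3.92 for Olfr834 to 10.71 for Olfr923, with a median of 6.99, against a median of 8.18 over all genes and 7.14 over the other receptors. Of the 106 members, 54 lay below the lower quartile of all genes (7.10), where an array tells signal from background least well. The standard deviation (SD) of a member over the 12 pools had a median of 0.18, as in the other receptors, against 0.13 over all genes. The steadiest were Olfr894, Olfr856-ps1, Olfr834 and Olfr853, with an SD of 0.06 to 0.07, and the least steady Olfr849, Olfr843, Olfr859 and Olfr910, with 0.42 to 0.45.

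The tissue was checked by its sensory neurons. Olfactory marker protein, Omp, which marks mature sensory neurons, lay between 12.70 and 13.08 in the 12 pools, and Gnal between 12.63 and 12.92. Correlated with each other over all genes, the pools gave mean coefficients of 0.984 to 0.993, and CT56 gave the lowest.

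The receptors of the cluster read higher in the last pool, CT56, than in the rest. There the median member stood 0.31 above its own mean over the 12 pools (quartiles 0.15 and 0.45), a factor of 1.24, and 94 of 106 members were above their mean. For 64 members (60.4%) CT56 was the highest of the 12 pools, against 38.3% of the other odorant receptors and 15.9% of all genes. The other receptors stood 0.16 above their own mean at CT56, and all genes 0.03 below it, at a median of -0.03. The value was not particular to the numbered range: the 22 other measured receptors of chromosome 9, which lie in the same blocks, stood at 0.30, with 21 of 22 above their mean, those of chromosome 2 at 0.21 and those of chromosome 19 at 0.23. As CT56 is 1 pool, this excess has no replicate: at the same phase 24 h earlier, CT32, the members stood at 0.03. The median of CT56 minus CT32 was 0.24 in the members, 0.24 in the receptors of chromosome 2 and 0.35 in the others of chromosome 9. A rescaling of the arrays that depends on level left the members' median at CT56 at 0.31. No other pool moved so many members one way. CT28 was the lowest pool, with a median of -0.13 and the lowest value of 26 members.

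**Figure D1:**
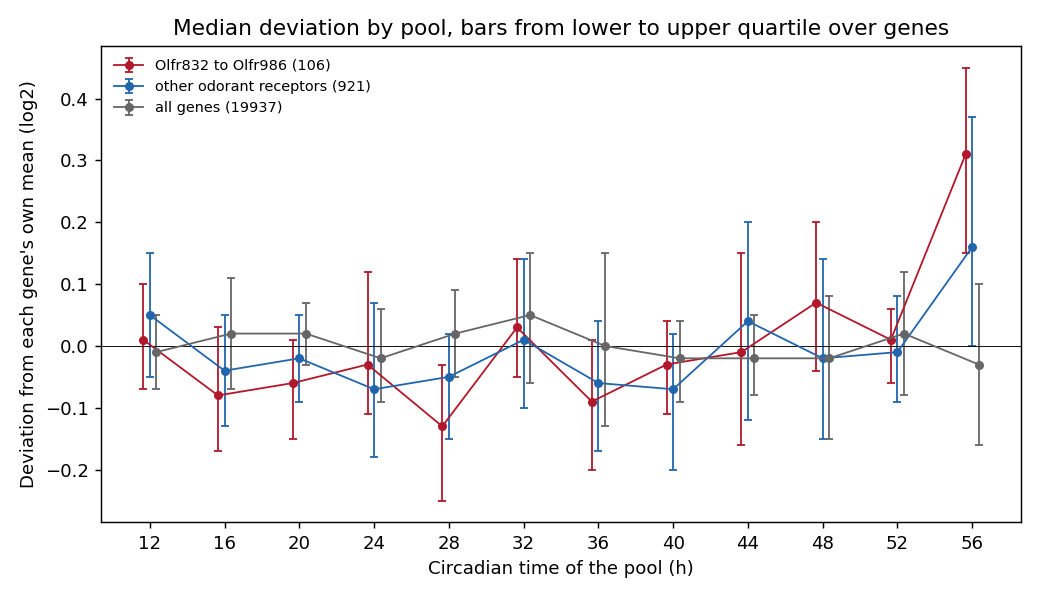
The median deviation of genes from their own mean (y axis, log2) in each pool (x axis, circadian time in hours), for the 106 members, the 921 other odorant receptors and all 19937 genes, with bars from the lower to the upper quartile over genes. The members' median lies between -0.13 and 0.07 in 11 pools and at 0.31 at CT56, where all genes stand at -0.03.

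Most genes of mature sensory neurons read below their own mean in that pool, 7 of 8, while Gng13, a G protein subunit, read 12.61, its highest value. At CT56 the median of 8 genes of mature neurons was 0.11 below their own mean (-0.11, with a range of -0.19 to 0.15 over pools), and Omp read 12.71 there, against 12.70 in its lowest pool. The median of 6 genes of immature neurons was -0.03, with 3 above their mean, and that of 21 genes of receptor transport and transduction was -0.06, with 7 above. These 21 include all 8 genes of mature neurons. The 6 gland genes stood at 0.16 and the 5 genes of motile respiratory cilia at 0.16, within ranges over pools of -0.98 to 2.28 and of -0.19 to 0.28. Below 0 were muscle (-0.20), lymphocytes (-0.16), vomeronasal neurons (-0.13), sustentacular cells (-0.06) and bone (-0.03). Genes of horizontal basal cells stood at 0.01 and those of globose basal cells at 0.04. Whether a different makeup of the CT56 tissue had a part in the members' values was not tested.

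The excess at CT56 differed in size along the cluster. Olfr843, a MOR155 receptor, read 7.74, 6.97, 7.13, 7.13, 7.17 and 7.67 from CT12 to CT32, and 6.93, 6.86, 7.65, 7.26, 7.25 and 8.34 from CT36 to CT56. Olfr849, of MOR151, read 6.38, 5.95, 6.02, 6.21, 6.11 and 6.53 in the first cycle and 5.73, 5.70, 6.80, 6.26, 6.37 and 7.28 in the second. Both ended 1.00 above their own mean, and both were also above their mean at CT12, CT32 and CT44 and lowest at CT40. Olfr868 read 6.28, 5.58, 5.70, 5.33, 5.73 and 5.92, then 5.51, 5.11, 5.97, 5.59, 5.77 and 6.65, which is 0.89 above its mean at the end. Its lowest pool was CT40, the pool at which Olfr877, in the next block, was highest.

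In the second block the largest deviation at CT56 was that of Olfr920, a MOR165 receptor, at 0.76. It read 7.47, 7.01, 7.18, 7.19, 7.37 and 7.49, then 7.05, 7.21, 7.60, 7.46, 7.34 and 8.14, so that its last pool stood well above any other. The median of the first block at CT56 was 0.40 and that of the second 0.29. The blocks also differed in level, with median probe means of 6.10 and 8.05, whose part was not tested. In all, 23 members exceeded their mean by more than 0.5 in this pool, a count not given here for all genes.

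A few members went the other way. Olfr901, a MOR162 receptor, read 6.77, 7.04, 6.55, 6.50, 6.64 and 6.46, then 6.93, 6.62, 6.77, 6.38, 6.68 and 6.17, so that CT56 was its lowest pool and lay 0.46 below its mean (-0.46). Olfr986, the last gene of the range and the only measured member of MOR104, stood at -0.25, and Olfr982 of MOR223 at -0.24. Over the 12 pools the correlation with the median of the other members was -0.75 for Olfr901, -0.76 for Olfr986 and -0.69 for Olfr862, and without CT56 it was -0.56, -0.83 and -0.73. In all, 11 members had a coefficient below 0 and 71 a coefficient over 0.5. Without CT56 these counts were 20 and 38, so many of the 71 rested on that pool.

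**Figure D2:**
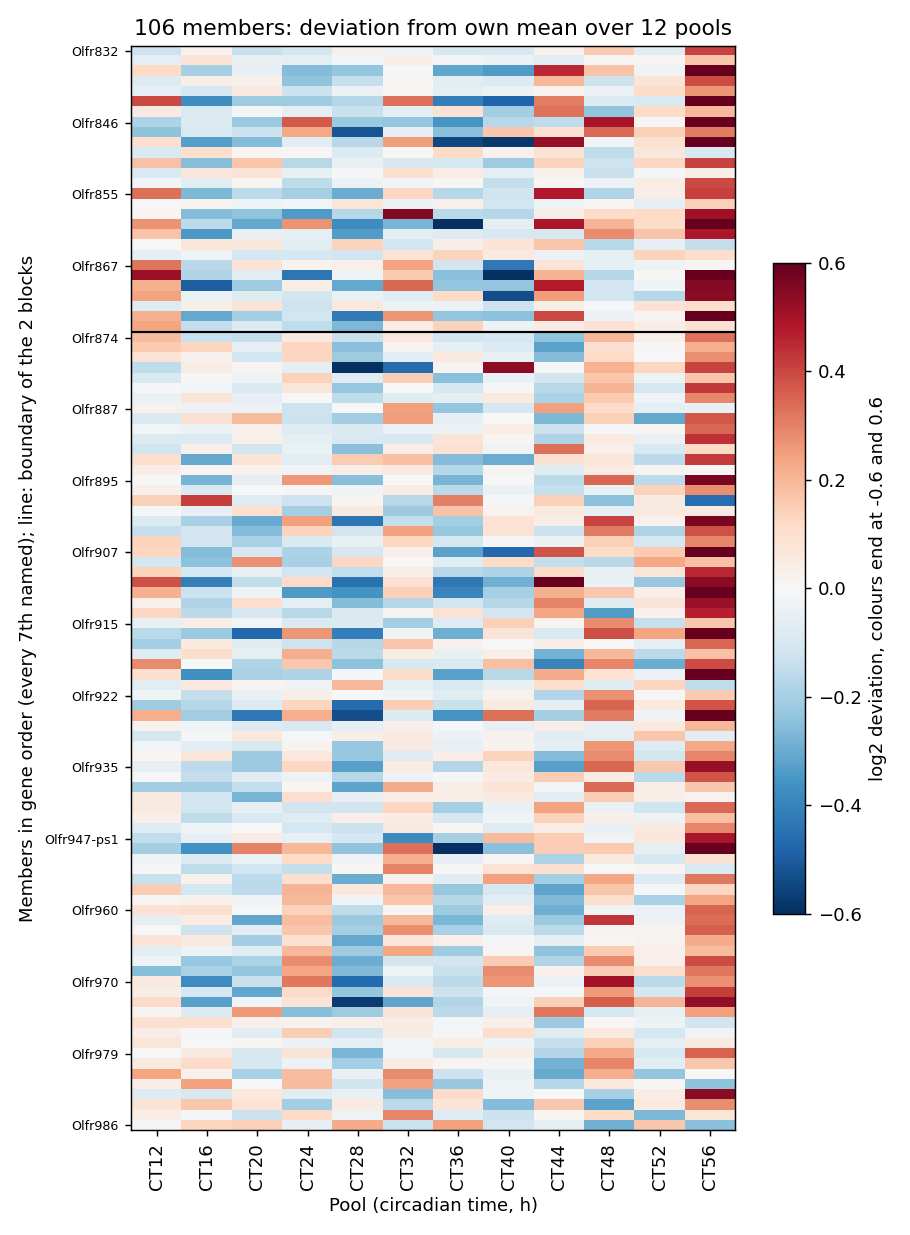
Deviation of each of the 106 members from its own mean (colour, log2) in the 12 pools (x axis, circadian time in hours), in gene order from Olfr832 at the top to Olfr986 at the bottom, with a line between the 2 blocks. The column at CT56 is red for 94 of 106 members, and CT44 is above the mean for 23 of 28 members of the first block and for 30 of 78 of the second.

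The families of the cluster had different profiles. At CT44 the blocks parted, with medians of 0.09 in the first and -0.06 in the second, and so did the families: MOR165 stood at 0.22 and MOR145 at 0.21, while MOR224 and MOR161 both stood at -0.24 and MOR223 at -0.17. All 8 members of MOR224, all 5 of MOR161 and all 5 of MOR223 were below their own mean there (4 of 5 of MOR161 with the scaling that depends on level), while 8 of 9 of MOR165 and 4 of 5 of MOR145 were above it. These are values of 1 pool, and in it the gland genes were at their highest (2.28) and the genes of mature neurons at their lowest (-0.19), whose part in the family values was not tested. Level went along with family here: the dimmer 53 members had a median of 0.06 at CT44 and the brighter 53 of -0.13, the means of MOR224 probes lay between 8.73 and 10.25 and those of MOR145 between 4.91 and 6.06.

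At CT56 the family medians ran from 0.55 in MOR145, 0.52 in MOR165 and 0.50 in MOR146 down to 0.05 in MOR223. Probe means lay between 4.91 and 6.06 in MOR145, 4.93 and 7.38 in MOR165, and 5.04 and 6.89 in MOR146. In MOR223 they lay between 8.06 and 9.53, and the part of level in this order was not tested. With the scaling that depends on level MOR165 came first, at 0.59, and MOR145 stood at 0.53. MOR171, the largest family, stood at 0.28. At CT48 MOR167 stood at 0.30, MOR223 at 0.22 and MOR161 at 0.20, against -0.05 in both MOR165 and MOR145. The best-known receptor of the region, Olfr151 or M71, a MOR171 gene whose number lies outside the range, had a mean of 6.24 and stood 0.05 above it at CT56. Olfr1537, also of MOR171 and outside the range, stood at 0.90.

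**Figure D3:**
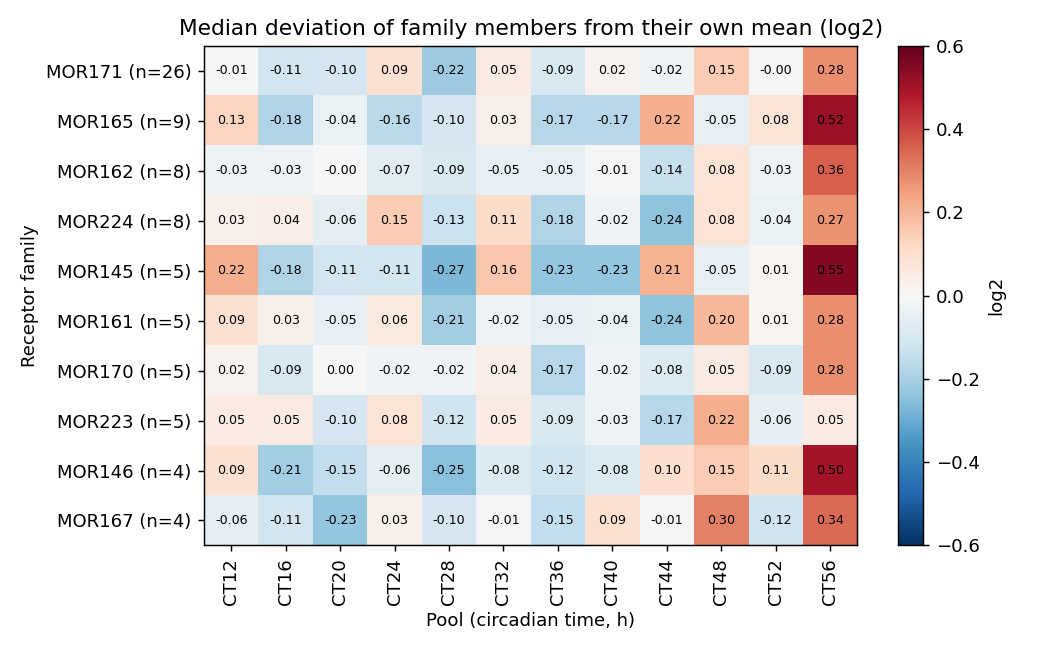
Median deviation of the members of the 10 families with at least 4 measured members (rows, n beside each name) from their own mean (colour and printed value, log2) in each pool (columns, circadian time in hours). MOR165 and MOR145 are high at CT44 (0.22 and 0.21), where MOR224 and MOR161 are both at -0.24, and 9 of the 10 families stand between 0.27 and 0.55 at CT56, with MOR223 at 0.05.

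Members shared part of their variation between pools. The median correlation over the 12 pools was 0.34 among all 5565 pairs of members, 0.48 within a family (478 pairs) and 0.53 between neighbouring measured members (104 pairs), against 0.13 among pairs of other odorant receptors. Those other pairs come from several chromosomes, and no family or neighbour pairs were taken from them. Without CT56 the 0.34 was 0.12 and the 0.13 was 0.06, so much of the 0.34 rested on the last pool. Without CT56 the median rose within MOR224 from 0.53 to 0.61 and within MOR223 from 0.58 to 0.64. It fell in the other families with at least 4 measured members. The points share their arrays, and probes of related receptors can bind the same RNA, whose part was not tested. The members most like the median of the others were Olfr912 and Olfr881 (0.87 each), Olfr920 (0.87), Olfr911-ps1 (0.86) and Olfr971 (0.86). Without CT56 the coefficient was 0.76 for Olfr912, 0.63 for Olfr881, 0.59 for Olfr920 and 0.56 for Olfr911-ps1. Olfr911-ps1 is listed as protein coding despite its symbol.

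The pair with the most parallel values was Olfr881 of MOR162 and Olfr979 of MOR223, at 0.98 with CT56 and 0.98 without it. Olfr881 ranged from 8.75 at CT28 to 9.40 at CT56, and Olfr979 from 8.36 at CT28 to 8.99 at CT56. Olfr869 and Olfr872, whose upstream sequences are printed above, gave 0.95 with and without CT56. Olfr869 read 5.66, 4.95, 5.23, 5.49, 5.14 and 5.79, then 5.21, 5.21, 5.92, 5.33, 5.42 and 5.99. Olfr872 read 5.13, 4.61, 4.71, 4.80, 4.49 and 5.18, then 4.68, 4.67, 5.31, 4.88, 4.93 and 5.59. Both were highest at CT56 and next highest at CT44, and Olfr868, their neighbour, correlated with them at 0.72 and 0.81.

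No member had a 24 h rhythm that passed the test. A cosine and a sine of 24 h were fitted to all 19937 genes with limma, and with adjustment over all of them 0 of the 106 members passed at 0.05, against 5 genes in all (0.0251%). At an unadjusted p under 0.05 there was 1 member (0.943%), against 3.54% of all genes. The smallest adjusted p among members was 0.996. The fitted amplitude, which is the height of the peak over the mean, had a median of 0.08 among members and 0.06 over all genes.

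The 1 member was Olfr857, a MOR146 receptor. It read 5.83, 5.56, 5.58, 5.48, 5.65 and 6.37 in the first cycle and 5.66, 5.65, 5.86, 5.93, 5.94 and 6.33 in the second, with the highest value of each cycle at CT32 and CT56. Its amplitude was 0.25 ± 0.08 (SE), with a peak at CT7.4 (limma, adjusted p = 0.996). Without CT32 and CT56, the whole of 1 phase, the amplitude was 0.07. Next by p came Olfr958, Olfr901, Olfr874, Olfr868, Olfr898, Olfr914 and Olfr843, with amplitudes of 0.10 to 0.29 and peaks between CT5.3 and CT15.6. Olfr868 and Olfr843 had the larger amplitudes, 0.29 and 0.28, and these too were lower without CT32 and CT56, at 0.13 and 0.05.

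The fitted peaks lay mostly in the subjective day, from CT0 to CT12: 88 of 106 members (83%), against 67.6% of the other receptors and 54% of all genes. Without CT56 alone, 59 of 106 members (55.7%) peaked there, against 52.7% of the other receptors and 60.2% of all genes. Leaving out both CT32 and CT56 removes a whole phase from that window, and 48.1% of members, 48.9% of the other receptors and 56.8% of all genes then peaked there. A change of rhythm between the cycles passed for 0 members and 0 genes (0%) by limma, and at an unadjusted p under 0.05 for 3 members, Olfr887, Olfr983 and Olfr954, against 0.717% of all genes. Olfr983 reached 7.65 at CT56 and lay between 6.85 and 7.22 in the other 11 pools, and Olfr954 reached 7.43 at CT32 and lay between 6.98 and 7.23 elsewhere.

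The members read slightly higher in the second cycle than in the first. The fitted difference had a median of 0.08 over the 106 members, 78 of them higher and 28 lower, against a median of -0.03 over all genes and 0.03 over the other odorant receptors. The 277 other receptors of chromosome 2 also had a median of 0.08. With phase in the model, 0 members and 0 genes (0%) passed by limma after adjustment. At an unadjusted p under 0.05, 16 of 106 members were higher, against 4.22% of all genes, and 3 were lower, against 8.94%. Among the 277 other receptors of chromosome 2 these counts were 42 and 3, and among all 921 other receptors 72 and 50. Between pools 24 h apart the median member differed by -0.09 from CT12 to CT36, 0.03 from CT16 to CT40, 0.05 from CT20 to CT44, 0.07 from CT24 to CT48, 0.13 from CT28 to CT52 and 0.24 from CT32 to CT56. The SD of these 6 values was 0.11, larger than the median difference of 0.08. In no member did the ranges of the 2 cycles separate, and no such count is given here for all genes.

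Single pools moved the count of 16. Without CT12 or CT36 it was 35, without CT28 or CT52 it was 8, and without CT32 or CT56 it was 9. Over all genes 2625 had an unadjusted p under 0.05 in either direction. That number moved too, to 3944, 1992 and 1416 in the same runs.

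**Figure D4:**
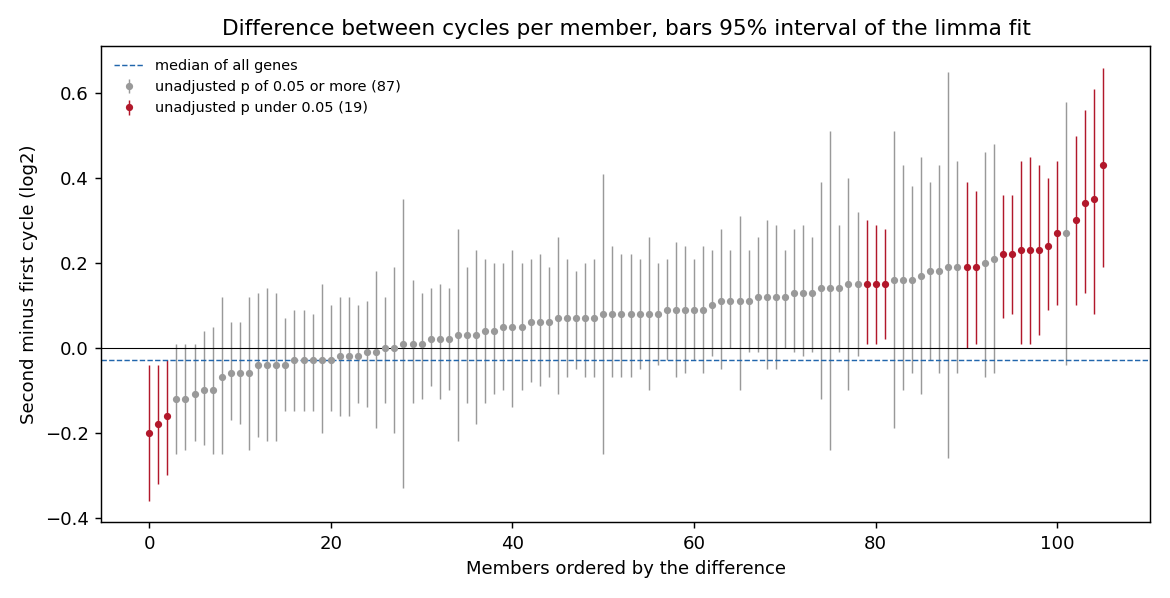
Second minus first cycle for each of the 106 members (points, log2), ordered along the x axis by size, with bars for the 95% interval of the limma fit and colour for an unadjusted p under 0.05. Of the points 78 lie above 0 and 28 below, 16 and 3 of them with an unadjusted p under 0.05, and the dashed line marks the median of all genes, -0.03.

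Among the members that read higher, Olfr877, a MOR161 receptor, had the largest difference. Its pools lay at 7.73, 8.30 and 8.45 (lowest, median and highest) in the first cycle and at 8.39, 8.57 and 8.94 in the second, so the cycles overlap only between 8.39 and 8.45. The difference was 0.43 ± 0.11 (SE; limma, adjusted p = 0.304), higher in 5 of 6 pairs. Olfr916 of MOR168 lay at 7.63, 7.91 and 8.37 and then at 7.81, 8.26 and 8.82, a difference of 0.34 ± 0.10. Olfr937 of MOR171 lay at 9.05, 9.19 and 9.59 and then at 9.35, 9.43 and 9.71, a difference of 0.22 ± 0.06. Olfr904, the member with the E-box printed above, differed by 0.30 ± 0.09, Olfr847 by 0.27 ± 0.08 and Olfr969 by 0.24 ± 0.07. All 6 shared the adjusted p of 0.304, and each was higher in 5 of 6 pairs.

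Of the 16 members higher at an unadjusted p under 0.05, 9 belong to MOR171: Olfr935, Olfr936, Olfr937, Olfr947-ps1, Olfr957, Olfr968, Olfr969, Olfr970 and Olfr972. MOR171 had 21 of 26 members higher in the second cycle, with a median of 0.09, and MOR145 had 5 of 5, with 0.12. MOR224 had 2 of 8, with a median of -0.04. Differences between families were not tested.

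Among those that read lower was Olfr982 of MOR223, at 9.41, 9.64 and 9.77 in the first cycle and 9.29, 9.43 and 9.59 in the second. It differed by -0.20 ± 0.07 (SE; limma, adjusted p = 0.315). Its neighbour Olfr981 differed by -0.16 ± 0.06, and Olfr867 of MOR143, at 7.56, 7.79 and 8.05 and then 7.30, 7.69 and 7.81, by -0.18 ± 0.06. Olfr867 read higher in the second cycle in 0 of 6 pairs, with 7.81 at both CT20 and CT44, and Olfr975 of MOR224, at -0.11 ± 0.05, also in 0 of 6. The other 2 by the smallest p were Olfr959 and Olfr958, also of MOR224, each at -0.12 ± 0.06.

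**Figure D5:**
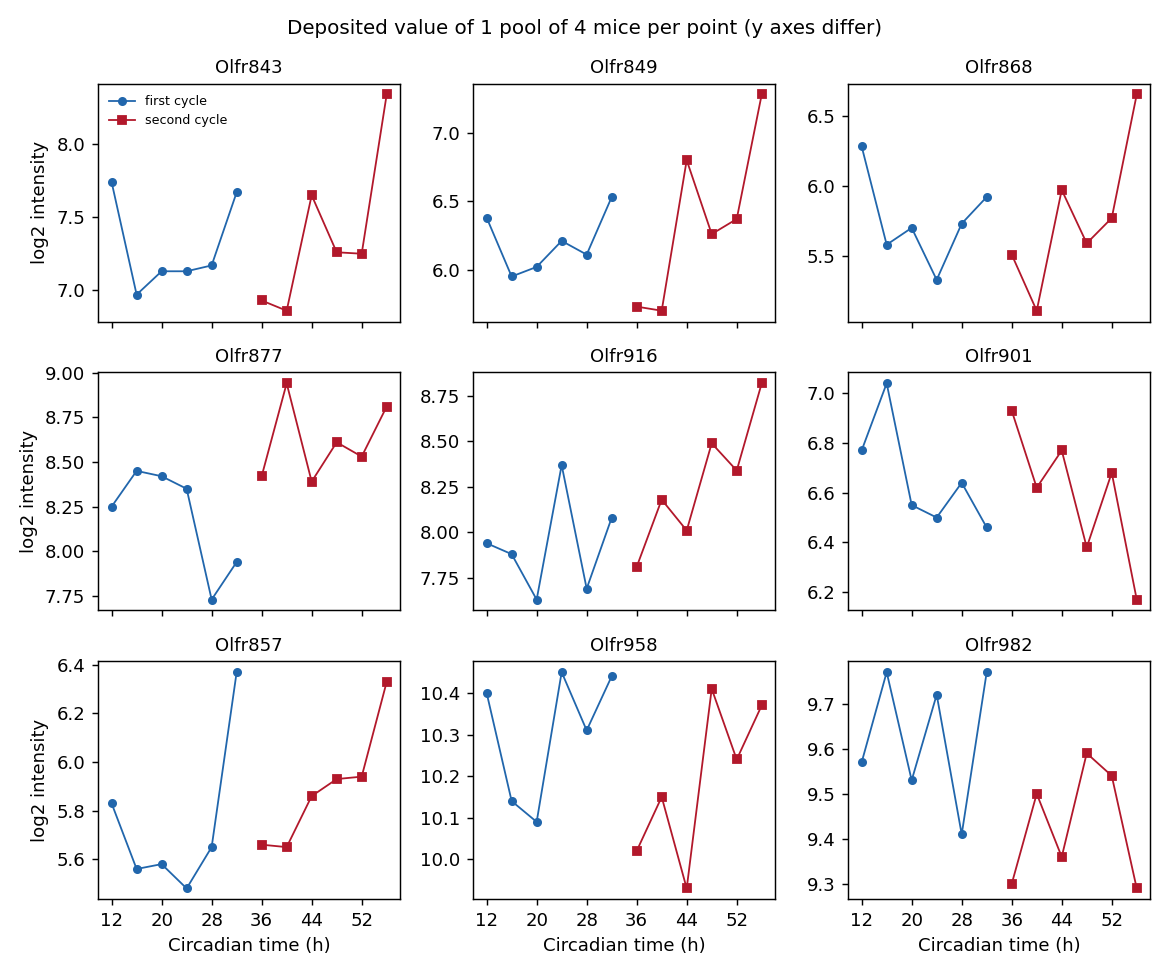
Deposited log2 intensity (y axes, which differ) against circadian time in hours (x axis) for 9 members, 1 pool of 4 mice per point, with the first cycle as blue circles and the second as red squares. Olfr843, Olfr849, Olfr868 and Olfr916 are highest at CT56, Olfr901 is lowest there at 6.17, and Olfr982 lies at 9.29 to 9.59 in the second cycle and 9.41 to 9.77 in the first.

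Most genes through which receptors act had differences below 0 in the second cycle, but several were near 0. Of 21 measured genes of receptor transport and transduction, 18 were lower, with a median of -0.08, and Slc12a2, a chloride transporter, was at 0.00. By limma 0 passed after adjustment, while 8 were lower and 1 was higher at an unadjusted p under 0.05, against 8.94% and 4.22% of all genes. Of all genes 61.7% were lower. Adcy3, the cyclase of the pathway, differed by -0.22 ± 0.06, Rtp1, which carries receptors to the cell surface, by -0.17 ± 0.05, and Omp by -0.20 ± 0.05. The 1 that was higher was Gng13, at 0.15 ± 0.06.

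Of 18 measured genes of receptor choice, 15 were lower, with a median of -0.11, and by limma 0 passed after adjustment and 7 were lower at an unadjusted p under 0.05, against 8.94% of all genes, whose median was -0.03. Lhx2 differed by -0.17 ± 0.05 and Atf5, a factor of the feedback that stabilises a chosen receptor, by -0.21 ± 0.05. The 8 markers of mature neurons had a median of -0.17, with 7 of 8 lower, and the 6 of immature neurons a median of -0.18, with 6 of 6 lower. All 8 of the mature neuron markers are also in the list of receptor transport and transduction, so these are not separate sets. What these differences share with those of the members was not tested.

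Most members read lower in the subjective night than in the day. The median of night minus day was -0.07, with 89 of 106 members lower, against a median of 0.00 over all genes and -0.03 over the other receptors. The 22 other receptors of chromosome 9 had a median of -0.11, with 21 of 22 lower. By limma 0 members and 0 genes (0%) passed after adjustment. At an unadjusted p under 0.05, 13 members were lower, against 5.69% of all genes, and 2 were higher, against 4.17%. Some markers of other cells also differed between night and day. Of motile respiratory cilia 5 of 5 genes read lower at night, with a median of -0.18. So did 3 of 3 genes of horizontal basal cells (-0.11) and 3 of 3 of globose basal cells (-0.06). In contrast 3 of 3 genes of muscle (0.13), 2 of 2 of bone (0.24) and 2 of 2 of lymphocytes (0.13) read higher. Other lists were mixed: mature neurons had a median of -0.01 (3 higher, 5 lower) and immature neurons -0.05 (2 and 4). The medians were 0.00 for sustentacular cells (3 and 3), -0.12 for gland (2 and 4) and -0.01 for vomeronasal neurons (1 and 3). By limma 0 genes of these lists passed after adjustment. The part of these lists in the members' values was not tested. Single pools moved the members' counts. Without CT56 the count of 13 was 7 and 39 members read higher at night instead of 17, while without CT28 it was 28. Without both CT32 and CT56, 41 members read higher at night, and the count of 13 was 3. Over all genes 1965 had an unadjusted p under 0.05 in either direction. That number was 1108 without CT56, 3069 without CT28 and 473 without both CT32 and CT56.

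Olfr958 had the smallest p among those that read lower. It lay at 9.93, 10.12 and 10.40 (lowest, median and highest) in the 6 pools of the night and at 10.24, 10.39 and 10.45 in the 6 of the day. In the night only CT12 reached the day's range. The difference was -0.25 ± 0.07 (SE; limma, adjusted p = 0.497), and it was -0.23 without CT32 and CT56. Olfr961, also of MOR224, differed by -0.30 ± 0.10, and Olfr905 of MOR167 by -0.26 ± 0.10. Olfr846 of MOR149 lay at 5.99, 6.17 and 6.26 at night and 6.11, 6.53 and 7.10 by day, where CT24, CT48 and CT56 were high, a difference of -0.39 ± 0.14.

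Among those that read higher at night, Olfr901 lay at 6.55, 6.77 and 7.04 at night and 6.17, 6.48 and 6.68 by day, which overlap. The difference was 0.31 ± 0.10 (SE; limma, adjusted p = 0.497), and 0.23 without CT32 and CT56. Olfr862 of MOR146 differed by 0.14 ± 0.06, Olfr902 of MOR169 by 0.10 ± 0.07 and Olfr850 of MOR147 by 0.09 ± 0.06. These 4 had correlations of -0.75 to -0.13 with the median of the others. That median read lower at night, so coefficients below 0 follow in part from how the 4 were picked.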

How the data were processed

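Total RNA was amplified with random primers and hybridised to Affymetrix arrays, per the labels' protocols. The authors deposited log2 intensities, 1 per probe and pool, made with affy per the submitters' processing notes; the background correction and scaling are steps not given in the labels or files. They are read as log2 from their range and were used as deposited, with no filter. Of 34760 probes 21640 have 1 gene symbol; a gene with several took the probe with the highest mean, and all 106 members have 1 probe. The depth of an array is not counted, and the 12 arrays limit the precision.

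Fits used limma 3.58.1 in R 4.3.3 over 19937 genes with Benjamini-Hochberg adjustment and a threshold of 0.05: 24 h terms (9 residual degrees of freedom), cycle with phase as a factor (5), 6 night against 6 day pools (10), and the interaction of 24 h terms with cycle. They were tested on simulated data. Pools 24 h apart are of different mice and share only their phase. Alternatives were quantile normalization, median centring, level-dependent scaling, a filter at the 25th percentile, the mean of probes, array weights, periods of 22 and 26 h, no phase term, a block for cycle and leaving out each pool; leaving out CT32 and CT56 together was chosen after seeing the data.

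The members and lists were chosen with earlier results of these data known. Named by rule were the members with the smallest p (8 for rhythm, 6 per direction for cycle, 4 per direction for night, 3 for the rhythm change), the 4 largest and 4 smallest SDs and the 5 most like the median; Olfr920, Olfr986, the members most different at CT56 and the pairs by correlation were named after their values were seen. Windows were aligned globally with a match of 1, a mismatch of -1, and gaps of -3 and -1. Gene names and order came from a RefSeq table of GRCm38.p6. Genes that lie on shared probes only were not analysed here.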

Additional observations from a re-analysis of the deposited data

Results flagged for a closer look

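The groups of 6 pools screened were each cycle, the night and the day, for 40 named members and for the median of the members. Of these 164 groups, 15 had 1 pool far from the rest. The ratio given is the gap of that pool to its nearest neighbour over the whole range of the group. A rate of 1 in 20 would give 8.2 flags, but it holds only for independent groups that were not picked by their values. Here the members were named from these same values. Each pool also enters a cycle group and a night or day group, and all groups share the same arrays. The screen therefore cannot decide whether 15 is more than chance would give. The 15 flags fell on 12 members, and 5 of the 15 were CT56 standing high. Among the 6 pools of the day CT56 stood high in Olfr849 (0.639), Olfr911-ps1 (0.632), Olfr920 (0.690) and Olfr983 (0.626), and among those of the second cycle in Olfr834 (0.691). CT32 stood high among the day pools in Olfr867 (0.707) and Olfr954 (0.646), and in Olfr954 also among those of the first cycle (0.651).

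In the night pools CT16 stood high in Olfr834 (0.645), CT12 in Olfr874 (0.666) and CT40 in Olfr877 (0.703), while CT44 stood low in Olfr975 (0.673). Olfr846 was high at CT24 in the first cycle (0.744), Olfr862 was high at CT28 among the day pools (0.649), and Olfr867 was low at CT40 in the second cycle (0.635).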

How the results depend on the processing

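By limma with adjustment over all genes, 0 members passed in any of the comparisons under any alternative run. The median of the members kept its sign under every alternative run: second minus first cycle it was 0.080, between 0.039 and 0.105 without single pools, and night minus day it was -0.074, between -0.122 and -0.036. The members named for the cycle and night comparisons kept their direction in all alternatives run that kept their probe. Counts at an unadjusted p under 0.05 moved, and over all genes they moved too, here in either direction. The 24 h fit had 706 such genes, 1424 with array weights, 2143 without CT32 and CT56 and 492 to 1221 without single pools. The cycle fit had 2625, 4231 with array weights, 2024 with no phase term and 1416 to 3944 without single pools. Night against day had 1965, 4763 with array weights, 473 without CT32 and CT56 and 888 to 4176 without single pools. For the 24 h rhythm, 1 member became 2 with quantile normalization, a period of 22 h or cycle as a replicate block, 0 without genes below the 25th percentile or with a period of 26 h, 4 with array weights, 3 without CT32 and CT56, and 0 to 9 without single pools. For the second cycle, 16 higher became 29 with array weights, 9 without CT32 and CT56, 8 with no phase term and 8 to 35 without single pools, and 3 lower became 5 with array weights, 1 with no phase term and 2 to 3 without single pools. For the night, 2 higher became 1 with median centring or without CT32 and CT56, 0 without genes below the 25th percentile, 5 with array weights and 1 to 2 without single pools, and 13 lower became 25 with array weights, 3 without CT32 and CT56 and 7 to 28 without single pools. Without genes below the 25th percentile, which leaves 52 members, 36 read higher in the second cycle in place of 78 and 5 at night in place of 17. At night 41 read higher with array weights or without CT32 and CT56, and 15 to 39 without single pools; in the second cycle 69 to 82 did. The causes of the other moves were not tested. In the cycle fit with phase, a run without 1 pool drops its whole pair, so the 2 runs of a pair are the same check. Over all genes the 24 h fit called 5, and 0 with a period of 22 h, 2 at 26 h and 7 with array weights. It called 6 with level-dependent scaling or the mean of probes. With cycle as a replicate block or without CT32 and CT56 it called 4, and without single pools 3 to 5. The cycle fit called 0, and 17 with array weights and 18 without CT12 or CT36, none of them members. Without genes below the 25th percentile it called 1 of 14953, also not a member. The block for cycle changed no adjusted call of a member. With 1 pool a time point, nothing measures the spread between pools of 1 time, and 54 members lie at levels where signal over background is low.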
